A study of Mus musculus with 9 samples.

Results

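The 10 genes described here encode the main glucose transporter, hexokinases and enzymes of glycolysis that are abundant in blood cells: Slc2a1, Hk1, Hk2, Gpi1, Pfkl, Aldoa, Pgk1, Eno1, Pkm and Ldha. The rule names them by gene symbol, the list was drawn up with earlier results of these data known, and they are 10 of the 37882 genes measured. All 10 were found by symbol, and all passed the filter on low values. RNA was sequenced from LSK cells, which are sorted from bone marrow by the absence of lineage markers and by Sca1 and cKit on the surface, and which hold the stem and early progenitor cells of blood. Control mice (rtTA) carried the doxycycline-dependent activator rtTA in Rosa26. K9M mice carried rtTA and, in addition, an H3K9M transgene in Col1a1, a histone H3 with methionine in place of lysine 9, and K36M mice carried rtTA and an H3K36M transgene in Col1a1. All mice were 6 to 8 weeks old on a B6/129 background, and all groups, controls included, drank water with 2 mg/ml doxycycline and 10 mg/ml sucrose. Each group had 3 mice and 3 libraries, numbered 1 to 3 as in the labels. No group carried a transgene with unmutated H3, so against rtTA the mutation and the presence of a transgene cannot be told apart. Expression is given in RPKM, reads scaled to gene length and to library size. The gene lengths used are not known, so comparisons of level between genes are approximate. Comparisons between libraries are approximate too. Summed RPKM ran from 467428 in rtTA 2 to 648864 in rtTA 1, and the protein-coding share from 60.7% in rtTA 1 to 74.1% in K36M 3. A gene was called where the adjusted p of limma was under 0.05 over all 12926 genes tested, with differences given on the log2(RPKM + 0.5) scale.

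Glycolysis breaks glucose down to pyruvate, with lactate as the end product when pyruvate is reduced. Slc2a1 encodes the carrier GLUT1 that brings glucose into the cell, the hexokinases trap it as glucose 6-phosphate, and the later enzymes convert it step by step. Several of these genes are known targets of the hypoxia factor HIF-1 and of MYC, and quiescent blood stem cells are known for their reliance on glycolysis in the low oxygen of the marrow.

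The promoters show a sequence feature that the rule did not use. The cores of the hypoxia response element, ACGTG and GCGTG, were searched on either strand in the 250 bases before each RefSeq transcript start (GRCm38.p6), together with the E-box CACGTG, which MYC with its partner MAX can bind, and the GC box GGGCGG. Each CACGTG contains ACGTG on each strand and is counted in each search. All 10 genes had at least 1 window, 17 in all, and 9 of the 10 genes held a core in at least 1 window. Of the 8630 tested genes with a window, 61.8% held a core in at least 1 window. By window, 13 of the 17 held a core, against 55.9% of the 10965 windows of tested genes and 38.6% of all 32851 windows. Members had more windows per gene than tested genes, which makes a core in at least 1 window likelier. Among the 10 genes, only Gpi1 held none. CACGTG was found in 1 member, Ldha, against 10.1% of tested genes, and GGGCGG in 8 members, against 64.1% of tested genes. Pgk1, Hk2, Ldha and Gpi1 are printed to show the range, from 2 cores per window in Pgk1 and Hk2, and 5 matches to ACGTG in Ldha, to none in Gpi1. Sequences run 5′ to 3′ along the strand of the gene, end at the base before the start, and have the cores on either strand in capitals. The coordinates are chrX:106186850-106187099 (plus strand) for Pgk1, chr6:82774455-82774704 (minus strand) for Hk2, chr7:46845554-46845803 (plus strand) for Ldha and chr7:34230337-34230586 (minus strand) for Gpi1. The Ldha window precedes the more upstream of its RefSeq starts and lies within the longer Ldha gene of GENCODE M21, outside its exons. The Gpi1 window overlaps an exon of the noncoding RNA gene Gm12762. A match describes these letters only and says nothing of binding.
Pgk1: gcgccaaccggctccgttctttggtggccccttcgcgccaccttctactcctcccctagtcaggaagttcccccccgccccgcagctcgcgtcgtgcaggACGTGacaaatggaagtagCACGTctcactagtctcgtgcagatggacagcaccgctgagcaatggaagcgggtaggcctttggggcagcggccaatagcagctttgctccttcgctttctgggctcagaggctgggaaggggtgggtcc
Hk2: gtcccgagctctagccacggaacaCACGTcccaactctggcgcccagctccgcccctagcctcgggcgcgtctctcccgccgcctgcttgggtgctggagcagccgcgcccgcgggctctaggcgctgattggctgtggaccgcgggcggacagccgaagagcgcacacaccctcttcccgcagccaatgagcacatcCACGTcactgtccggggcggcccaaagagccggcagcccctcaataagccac
Ldha: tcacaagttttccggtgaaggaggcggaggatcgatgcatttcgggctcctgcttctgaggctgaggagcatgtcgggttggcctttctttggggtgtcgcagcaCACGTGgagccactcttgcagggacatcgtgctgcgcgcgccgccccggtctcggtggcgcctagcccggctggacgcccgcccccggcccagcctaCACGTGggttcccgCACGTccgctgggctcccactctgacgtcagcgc
Gpi1: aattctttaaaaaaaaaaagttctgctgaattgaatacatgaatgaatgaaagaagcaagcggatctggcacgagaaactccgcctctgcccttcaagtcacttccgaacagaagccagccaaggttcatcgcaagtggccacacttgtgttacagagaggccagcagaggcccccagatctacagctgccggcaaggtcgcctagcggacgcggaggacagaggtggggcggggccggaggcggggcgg

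By level, the last enzymes of the pathway led the 10 genes. Pkm, pyruvate kinase, was the highest of the 10 in all 9 libraries, with a mean of 444 RPKM that ranked 153 of the 12926 tested genes. Ldha, the lactate dehydrogenase subunit that favours lactate, followed among the 10 at 253 RPKM (rank 255). Gapdh, an enzyme of a middle step outside the 10, was higher than Ldha in each group. Group means in rtTA, K9M and K36M were 275, 304 and 325 RPKM for Gapdh and 238, 251 and 270 for Ldha. Pgk1, phosphoglycerate kinase, stood at 195 RPKM, Aldoa, aldolase, at 161, Gpi1, glucose phosphate isomerase, at 136, and Eno1, enolase, at 118.1. These 6 genes lay within the 525 most abundant tested genes. Pfkl, the liver-type subunit of phosphofructokinase, was lower at 40.6 RPKM, and the genes of glucose uptake and trapping lower still, with Hk1 at 27.6 RPKM, Slc2a1 at 20.1 and Hk2 at 8.41. The order between neighbours held in every library for 5 of the 9 neighbouring pairs. Pgk1 was above Aldoa in 8 of 9 libraries, Aldoa above Gpi1 in 8, and Hk1 above Slc2a1 in 8, while Gpi1 was above Eno1 in only 5. Gpi1 and Eno1 therefore cannot be ordered beyond their spread.

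**Figure D1:**
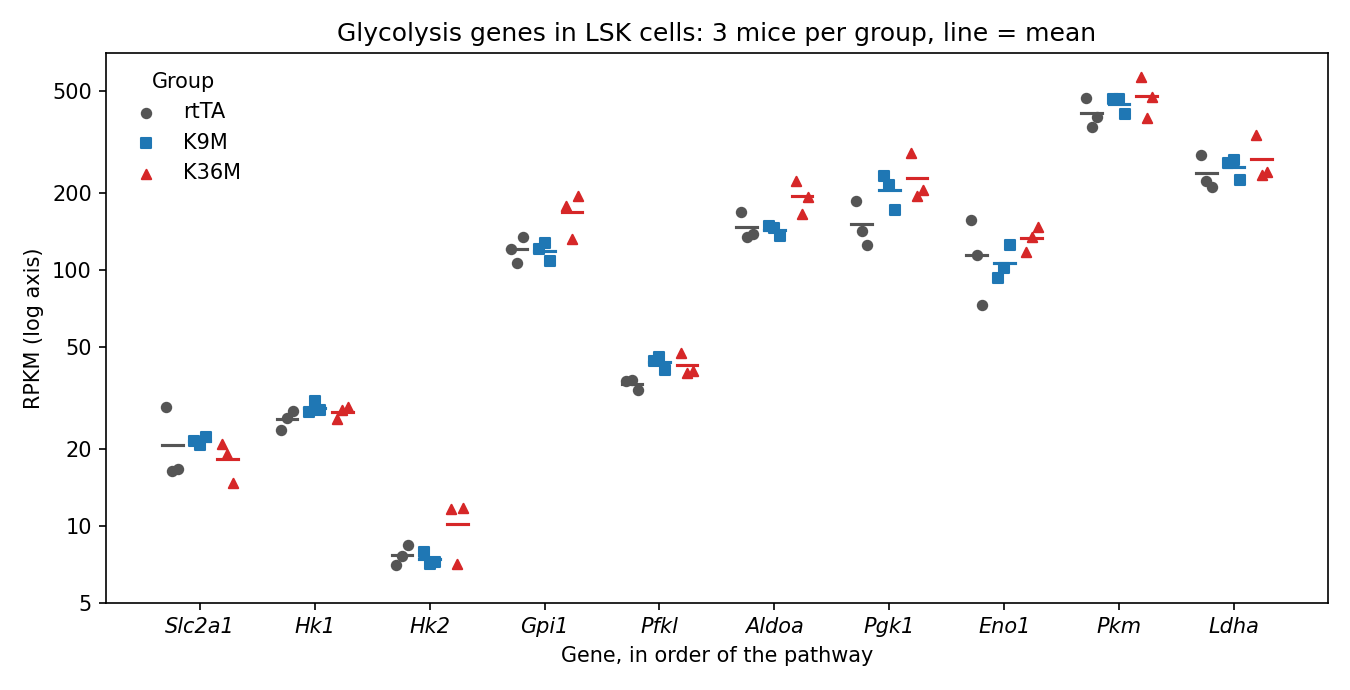
RPKM (log axis) of the 10 genes, in the order of the pathway, in the 3 mice of each group; points are libraries and short lines are group means. Pkm lies highest, from 362 to 565 RPKM, Hk2 lowest, from 7.04 to 11.7 RPKM, and the 3 groups overlap for most genes.

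Library depth, read from the smallest RPKM steps, was about 15860000 to 50310000 reads, and the members had about 681 to 119510 reads per library. Counting error alone is then about 0.289% to 3.83% of a value, beside coefficients of variation between mice of 3.45% (Slc2a1 in K9M) to 36.7% (Eno1 in rtTA), so for the steadiest groups the counting error is part of the spread. In a principal component analysis, rtTA 1 had a first coordinate of -26.7 (25.4% of variance), beside the K9M libraries (-24.9 to -17.8) and away from rtTA 2 and 3 (5.79 and 10.6). On the second coordinate it was at -19.9, apart from the K9M libraries (-4.31 to 7.35). The sort markers were present, with Kit, the cKit receptor, between 53.3 and 102 RPKM and Ly6a, which encodes Sca1, between 119 and 292 RPKM, while Cd3e of T cells was at most 0.168 RPKM. Genes of the granulocyte lineage were also detected, and they did not move together. Of 12 markers, 4 (Elane, Mpo, Prtn3 and Ctsg) had positive differences in K36M against rtTA and the others negative ones. Group means in rtTA, K9M and K36M were 459, 516 and 941 RPKM for Mpo, and 1063, 277 and 121 for S100a8. Over the 12 granulocyte markers, summed RPKM was 1500 to 7467 in rtTA (highest in rtTA 3), 1324 to 1737 in K9M and 1275 to 3668 in K36M (3257, 1275 and 3668 in K36M 1 to 3), and none of the 12 was at 0 throughout. Sums over 10 monocyte and macrophage markers were 221 to 733, 192 to 219 and 233 to 545 in the same order of groups, over 8 B lineage markers 37.6 to 51.1, 19.9 to 24.9 and 31.2 to 36.9, over 8 T and NK markers 92.9 to 99.8, 126 to 135 and 104 to 148, over 10 erythroid markers 421 to 451, 454 to 619.5 and 427 to 693, and over 6 megakaryocyte markers 68.3 to 98.3, 71.6 to 108 and 56.9 to 82.3. Most of the T and NK sum came from 1 gene, Nkg7, with group means of 91.6, 125 and 126 RPKM in rtTA, K9M and K36M. In these bulk samples, a smaller number of cells of a type and less RNA per cell cannot be told apart.

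No member passed the test in any of the 3 comparisons. Of all tested genes, limma called 0.116% in K9M against rtTA, 1.5% in K36M against rtTA and 2.52% in K36M against K9M, so a list of 10 would hold few calls at the rate of all genes. At an unadjusted p under 0.05 there were 2 members in K9M against rtTA (Pfkl and Pgk1, 7.11% of all tested genes), 4 in K36M against rtTA (Pgk1, Gpi1, Aldoa and Pfkl, 19.1%) and 2 in K36M against K9M (Aldoa and Gpi1, 18.8%), all with positive differences. In K36M against rtTA, 9 of 10 members had a positive difference, with a median of 0.26, beside 52.3% positive and a median of 0.02 over all tested genes. The 9 were modest, from 0.10 to 0.59, and Slc2a1 was negative (-0.15). In K9M against rtTA, 6 of 10 were positive, with a median of 0.09 (all tested genes 51.3% and 0.01), and in K36M against K9M 7 of 10, with a median of 0.11 (51.1% and 0.01). The groups did not overlap for 1 member in K9M against rtTA (Pfkl), for 2 in K36M against rtTA (Pfkl and Pgk1) and for 2 in K36M against K9M (Gpi1 and Aldoa), each with the first-named group higher, beside 7.09%, 11.6% and 14.5% of all tested genes. The comparisons with rtTA share the control libraries, and the third shares the mutant libraries with them.

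The 95% intervals show what sizes of difference the data allow. They lay between -1 and 1 on the log2 scale for all 10 members in each comparison, apart from Pgk1 in K36M against rtTA, whose interval reached 1.05. Deviations from group means correlated between same-number libraries of K36M and rtTA (0.414, 0.369 and 0.377), though the labels state no pairing. With the replicate number as a block 1 member, Pgk1, passed in K36M against rtTA (limma adjusted p = 0.0434). That fit holds all 3 groups, and with the block fitted to K36M and rtTA alone Pgk1 did not pass (limma adjusted p = 0.0722). Without K36M 2, Hk2 passed in K36M against rtTA (limma adjusted p = 0.0469), and Hk2 (0.0326) and Gpi1 (0.042) in K36M against K9M. Without rtTA 1, the control that lay beside the K9M libraries on the first coordinate only, no member passed, and the median was 0.21 in K9M and 0.31 in K36M against rtTA.

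**Figure D2:**
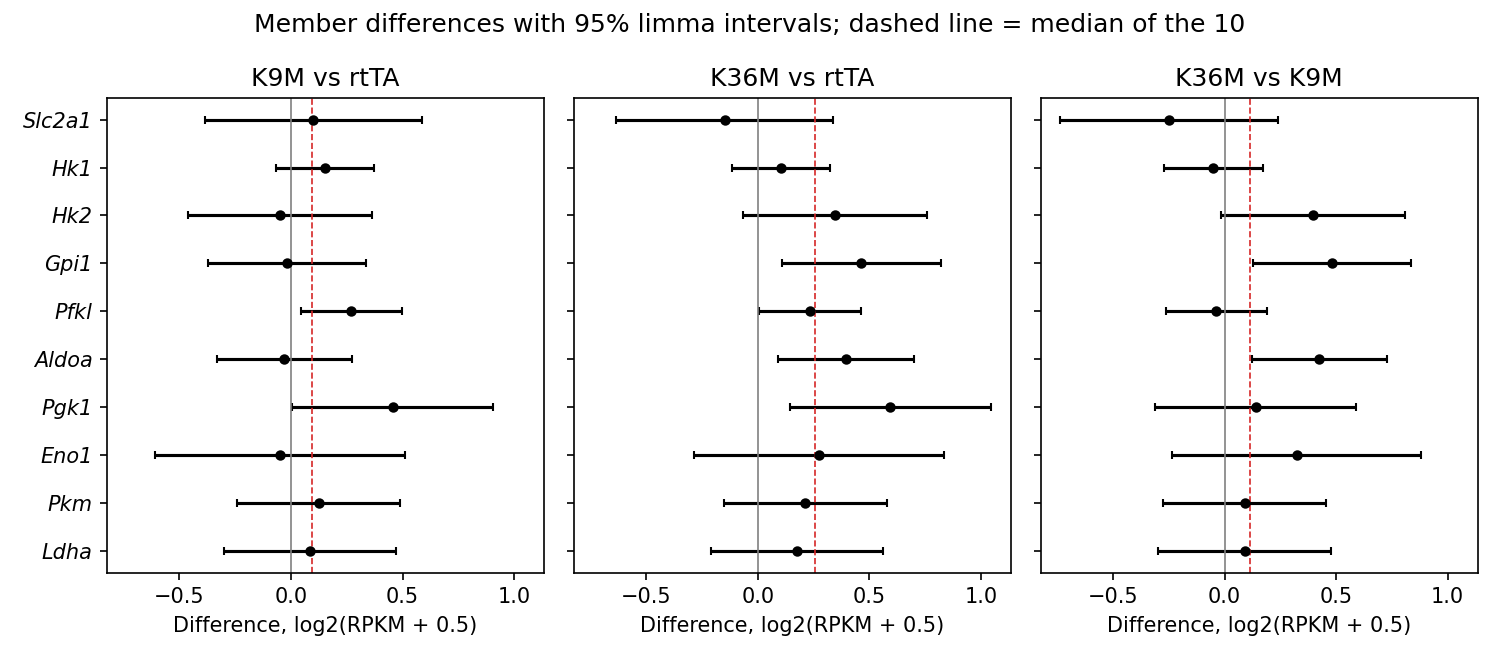
Difference between group means on the log2(RPKM + 0.5) scale for each of the 10 genes in the 3 comparisons; points are limma estimates, bars 95% intervals, the dashed line the median of the 10. In K36M against rtTA, 9 points lie above 0, the highest being Pgk1 at 0.59, and none passed the adjusted test.

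Glucose entry and trapping came first. Slc2a1 (ENSMUSG00000028645, mm10 chromosome 4, 119108711 to 119137983) stood at 29.1, 16.4 and 16.6 RPKM (rtTA 1 to 3), 21.5, 20.7 and 22.1 (K9M 1 to 3) and 20.8, 18.96 and 14.6 (K36M 1 to 3). Control 1 was the highest of all libraries, and the other 8 lay between 14.6 and 22.1 RPKM with the groups overlapping. Group means were 20.7 ± 7.25 RPKM for rtTA, 21.4 ± 0.738 for K9M and 18.1 ± 3.15 for K36M (SD, n = 3 each). Its differences were 0.10 and -0.15 in K9M and K36M against rtTA (limma adjusted p = 0.938 and 0.758), and -0.25 in K36M against K9M (limma adjusted p = 0.591). Without rtTA 1 the difference of K36M from rtTA turned to 0.12.

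Hk1 (ENSMUSG00000037012, chromosome 10, 62268855 to 62379908), the widely expressed hexokinase, was the steadiest member, with 23.6, 26.3 and 28.05 RPKM (rtTA 1 to 3), 27.7, 30.6 and 28.3 (K9M 1 to 3) and 26.1, 28.4 and 29.1 (K36M 1 to 3). Its highest library was only 1.30 times its lowest, and the groups overlapped. Differences were 0.15, 0.10 and -0.05 in K9M against rtTA, K36M against rtTA and K36M against K9M, with 95% intervals of -0.07 to 0.37, -0.12 to 0.32 and -0.27 to 0.17. Hk2 (ENSMUSG00000000628, chromosome 6, 82725025 to 82774454), the hexokinase that HIF-1 and MYC are known to induce, stood at 7.04, 7.59 and 8.43 RPKM (rtTA 1 to 3), 7.90, 7.10 and 7.19 (K9M 1 to 3) and 11.6, 7.07 and 11.7 (K36M 1 to 3). K36M 1 and 3 were above every other library, and K36M 2 lay among the controls. The difference was 0.35 (SE 0.18, limma adjusted p = 0.339) from rtTA and 0.40 (SE 0.18, limma adjusted p = 0.285) from K9M. The same libraries, K36M 1 and 3, had the higher granulocyte sums of their group (3257 and 3668 against 1275 RPKM in K36M 2) and the higher sums of 10 monocyte and macrophage markers (323 and 545 against 233). Among the granulocyte markers, Mpo stood at 1065, 466 and 1292 RPKM and S100a8 at 177, 72.3 and 112 (K36M 1 to 3). In K9M, Hk2 did not follow the granulocyte sums, which were 1650, 1737 and 1324 RPKM (K9M 1 to 3). In rtTA the sums were 2148, 1500 and 7467 RPKM (rtTA 1 to 3). Control 3 was highest of its group in both, and rtTA 1 and 2 stood in opposite order. The part of granulocyte or monocyte RNA in the Hk2 values was not tested.

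The preparatory steps follow. Gpi1 (ENSMUSG00000036427, chromosome 7, 34201330 to 34230336) turns glucose 6-phosphate into fructose 6-phosphate. Its values were 120.4, 106 and 135 RPKM (rtTA 1 to 3), 121, 127 and 108 (K9M 1 to 3) and 177, 132 and 194 (K36M 1 to 3). K36M 1 and 3 were the highest libraries, as for Hk2, and K36M 2 lay below rtTA 3, though above all K9M libraries. Means were 120.4 ± 14.3 RPKM for rtTA, 119 ± 9.60 for K9M and 168 ± 32.1 for K36M (SD, n = 3 each). The K36M mean was 1.39 times that of rtTA (difference 0.46, SE 0.16, limma adjusted p = 0.161) and 1.41 times that of K9M (0.48, SE 0.16, limma adjusted p = 0.141), and neither passed. The difference of K9M from rtTA was -0.02. Rank of the K36M libraries again followed the granulocyte sums above, whose part was not tested.

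Pfkl (ENSMUSG00000020277, chromosome 10, 77986947 to 78010083) encodes a subunit of phosphofructokinase, the committed step. It stood at 36.7, 37.01 and 33.9 RPKM (rtTA 1 to 3), 43.9, 45.7 and 40.6 (K9M 1 to 3) and 47.4, 39.6 and 40.2 (K36M 1 to 3). All 6 mutant libraries were above all 3 controls. The difference was 0.27 (SE 0.10, 95% interval 0.04 to 0.50, limma adjusted p = 0.615) in K9M and 0.23 (SE 0.10, 95% interval 0.01 to 0.46, limma adjusted p = 0.249) in K36M. Neither passed. K36M and K9M differed by -0.04 (95% interval -0.26 to 0.19). Aldoa (ENSMUSG00000030695, chromosome 7, 126795234 to 126800751) splits fructose 1,6-bisphosphate. It stood at 168, 135 and 137 RPKM (rtTA 1 to 3), 148, 146 and 135 (K9M 1 to 3) and 222, 165 and 193 (K36M 1 to 3). K36M 1 and 3 were the highest, and K36M 2 lay just below rtTA 1. The difference of K36M was 0.40 from rtTA (SE 0.13, limma adjusted p = 0.163) and 0.43 from K9M (SE 0.13, limma adjusted p = 0.134). With quantile normalization, the difference from K9M passed (0.41, limma adjusted p = 0.0243).

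The energy-yielding steps gave the largest difference. Pgk1 (ENSMUSG00000062070, chromosome X, 106187100 to 106203699) makes ATP from 1,3-bisphosphoglycerate. It stood at 185, 142 and 125 RPKM (rtTA 1 to 3), 232, 215 and 171 (K9M 1 to 3) and 286, 194 and 205 (K36M 1 to 3). Every K36M library was above every control, and K9M 3 lay below rtTA 1, so K9M and rtTA overlapped. Means were 151 ± 30.99 RPKM for rtTA, 206 ± 31.6 for K9M and 228 ± 50.1 for K36M (SD, n = 3 each). The K36M mean was 1.51 times that of rtTA (difference 0.59, SE 0.20, 95% interval 0.14 to 1.05, limma adjusted p = 0.159), and the K9M mean 1.37 times (0.46, SE 0.20, limma adjusted p = 0.70). The call of Pgk1 with the replicate block over all 3 groups (limma adjusted p = 0.0434) was lost with the block over these 2 groups (0.0722), at the same difference. K36M 1 weighed on this value, which was 0.42 without it (limma adjusted p = 0.431).

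Eno1 (ENSMUSG00000063524, chromosome 4, 150236721 to 150248879) forms phosphoenolpyruvate. It had the widest spread among the controls, with 157, 114 and 72.9 RPKM (rtTA 1 to 3), 93.1, 102 and 125 (K9M 1 to 3) and 117, 135 and 147 (K36M 1 to 3). Differences were -0.05, 0.28 and 0.32 in K9M against rtTA, K36M against rtTA and K36M against K9M (SE 0.25 in each), and limma adjusted p was between 0.537 and 0.981. Pkm (ENSMUSG00000032294, chromosome 9, 59656368 to 59679375) stood at 469.7, 362 and 397 RPKM (rtTA 1 to 3), 465, 465 and 405 (K9M 1 to 3) and 565, 393 and 475 (K36M 1 to 3). Ldha (ENSMUSG00000063229, chromosome 7, 46841475 to 46855627) stood at 281, 223 and 209.9 RPKM (rtTA 1 to 3), 261, 268 and 224 (K9M 1 to 3) and 335, 235 and 240.1 (K36M 1 to 3). For both, K36M 1 was the highest library and K36M 2 lay within the range of the controls. Pkm differed by 0.12 in K9M and 0.21 in K36M against rtTA, and Ldha by 0.08 and 0.17 (limma adjusted p between 0.521 and 0.934 over the 4 values).

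The libraries varied within each group. Summed over the 10 genes, RPKM was 1478, 1169 and 1164 (rtTA 1 to 3), 1421, 1426 and 1266 (K9M 1 to 3) and 1808, 1348 and 1549.9 (K36M 1 to 3). K36M 1 was the highest, and K36M 2 lay below rtTA 1. Over the 45 pairs of members, the correlation of log2 values across the 9 libraries was positive in 38 and had a median of 0.31 (0.28 after group means were removed), from -0.54 for Hk1 with Slc2a1 to 0.90 for Gpi1 with Hk2. These values describe 9 libraries that share depth and scaling with every gene. Outside the members, the genes most like the mean standardized profile of the 10 were Slc25a39, a mitochondrial carrier (r = 0.98), Bsg, the chaperone of the lactate carriers (r = 0.98), and Dld, a subunit of the pyruvate dehydrogenase complex (r = 0.98), over 9 libraries and 12916 genes with a median r of 0.02. Bsg stood at 133, 106 and 106 RPKM (rtTA 1 to 3), 132, 132 and 121 (K9M 1 to 3) and 169, 134 and 142 (K36M 1 to 3).

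Near-identical copies bear on 6 of the 10 values. Copies were taken as other genes that match a member's longest coding sequence at 90% identity or more over at least 300 bases. Slc2a1, Hk1, Hk2 and Pfkl had none. Gpi1 had 1, Pgk1 and Eno1 had 2 each, Pkm 4, Aldoa 5 and Ldha 10. Expressed on the member's exon length in GENCODE M21, the copies held at most 2.17% of the combined value for Aldoa, Pkm and Ldha, from 0.263% to 4.10% for Gpi1, from 5.18% to 24.8% for Pgk1 and from 2.11% to 35.6% for Eno1. The lengths behind the RPKM values are not known, so these shares and all values with copies added are approximate. The sources used here give no rule for reads with several matches, and reads of a member and its copies may be exchanged.

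For Eno1 a copy was high where the gene was low. Gm5506 is listed as protein-coding in GENCODE M21 and is 99.4% identical over the coding sequence. It stood at 13.7, 14.2 and 98.7 RPKM (rtTA 1 to 3), 119.9, 113 and 14.6 (K9M 1 to 3) and 163, 11.5 and 4.10 (K36M 1 to 3). Its values fell into a high set and a low set with a wide gap, and both sets were found in every group. Within each group, the libraries where Gm5506 was high had the lowest Eno1: rtTA 3 in the controls, K9M 1 and 2 in K9M, and K36M 1 in K36M. Gm4735, a processed pseudogene 99.6% identical, lay between 3.75 and 33.3 RPKM. With both copies added, Eno1 was 166, 119.8 and 112 RPKM in rtTA 1 to 3, 139, 148 and 133 in the K9M libraries, and 182, 139.7 and 150.1 in the K36M libraries, and the highest library was 1.63 times the lowest, against 2.16 times for Eno1 alone. The differences with copies were then 0.09 in K9M, 0.26 in K36M and 0.16 in K36M against K9M (limma adjusted p = 0.922, 0.432 and 0.645).

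**Figure D3:**
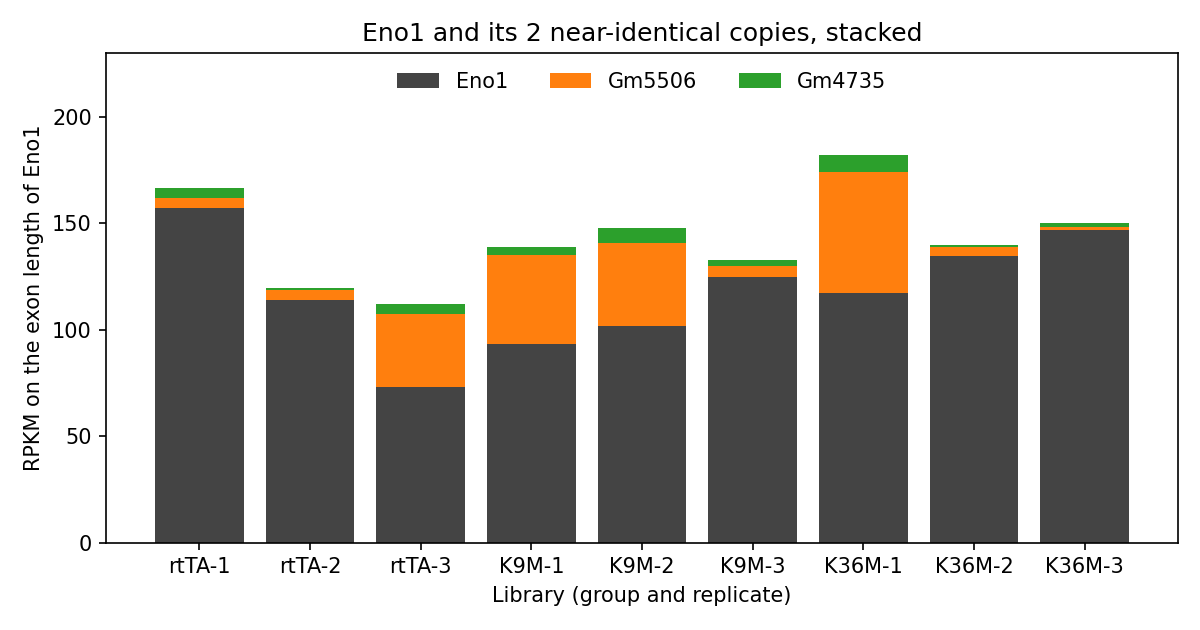
Eno1 and its 2 near-identical copies in each library, stacked, in RPKM on the exon length of Eno1. The Gm5506 part is large in rtTA 3, K9M 1, K9M 2 and K36M 1, where the Eno1 part is the lowest of its group, and the stacked total runs from 112 to 182 RPKM.

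Pgk1 has 2 processed copies, each 100% identical over the aligned coding sequence. Gm5537 stood between 14.04 and 46.5 RPKM with the groups overlapping. Pgk1-rs7 stood at 32.2, 25.2 and 27.3 RPKM (rtTA 1 to 3), 14.9, 15.1 and 28.7 (K9M 1 to 3) and 22.8, 4.004 and 6.49 (K36M 1 to 3), and its K36M libraries were all below the controls (-1.66, limma adjusted p = 0.139), the reverse of Pgk1. With both copies added, Pgk1 was 181 ± 27.01 RPKM for rtTA, 233 ± 25.2 for K9M and 250.3 ± 55.3 for K36M (SD, n = 3 each), and the difference of K36M from rtTA was 0.46 (limma adjusted p = 0.21) in place of 0.59. For Gpi1, the processed pseudogene Gm1840 (chromosome 8, 5639580 to 5641011, 98.7% identical) was chosen after its values were seen. It stood at 3.45, 2.01 and 2.52 RPKM (rtTA 1 to 3), 9.56, 13.6 and 20.8 (K9M 1 to 3) and 3.18, 1.57 and 2.47 (K36M 1 to 3). All K9M libraries were above all others, and the gene rose in K9M against rtTA by 2.22 (SE 0.31, limma adjusted p = 0.0423) while the difference of Gpi1 itself was -0.02. The call ended in 15 of 22 alternatives, among them without rtTA 2 (limma adjusted p = 0.171), rtTA 3 (0.138), K9M 2 (0.176) or K9M 3 (0.123), with the difference between 1.94 and 2.48 when a library was left out. In K36M against K9M it was lower by 2.35 on the log2 scale (limma adjusted p = 0.0124), which ended without K36M 3 (0.0525).

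Set against their isoenzymes, most members were the dominant form. Aldoa made up 96.3% to 98.4% of summed aldolase RPKM, Eno1 94.9% to 97.2% of enolase, Pkm 98.2% to 99.5% of pyruvate kinase and Ldha 88.7% to 91.3% of lactate dehydrogenase, with Ldhb nearly all of the rest. The enolase sum holds Eno1, Eno2 and Eno3 and leaves out Gm5506, the copy of Eno1 listed as protein-coding. In rtTA 3, K9M 1, K9M 2 and K36M 1, Gm5506 had more RPKM than Eno1 (163 against 117 in K36M 1). Pgk2, the testis form, was listed at 0 in every library. Slc2a1 made up 54.8% to 75.9% of the 3 glucose transporters Slc2a1, Slc2a3 and Slc2a4. Hexokinase and phosphofructokinase were mixed. Hk1 made up 43.3%, 44.4% and 40.6% of hexokinase RPKM in rtTA 1 to 3, 46.2%, 47.8% and 47.6% in the K9M libraries, and 28.99%, 39.9% and 27.6% in the K36M libraries, so the 3 groups did not overlap. Hk3, a hexokinase abundant in myeloid cells, made up 42.7% to 46.98% in rtTA, 40.1% to 41.0% in K9M and 49.97% to 61.1% in K36M. In RPKM the groups overlapped for Hk1, with means of 25.98, 28.9 and 27.9 in rtTA, K9M and K36M, beside 27.2, 24.8 and 50.7 for Hk3. The smaller Hk1 share in K36M than in rtTA was therefore not a lower Hk1 mean. No rate over all genes was computed for such shares. Hk2 stayed between 9.94% and 13.2% in all libraries. Of phosphofructokinase, Pfkl made up 53.5% to 54.6% in rtTA, 55.75% to 58.2% in K9M and 57.1% to 60.1% in K36M, and the muscle form Pfkm 33.9% to 34.04%, 30.8% to 32.4% and 23.6% to 29.3%. With 3 mice against 3, an exact two-sided permutation test cannot go below p = 0.1 for such shares, and groups that do not overlap reach that value.

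**Figure D4:**
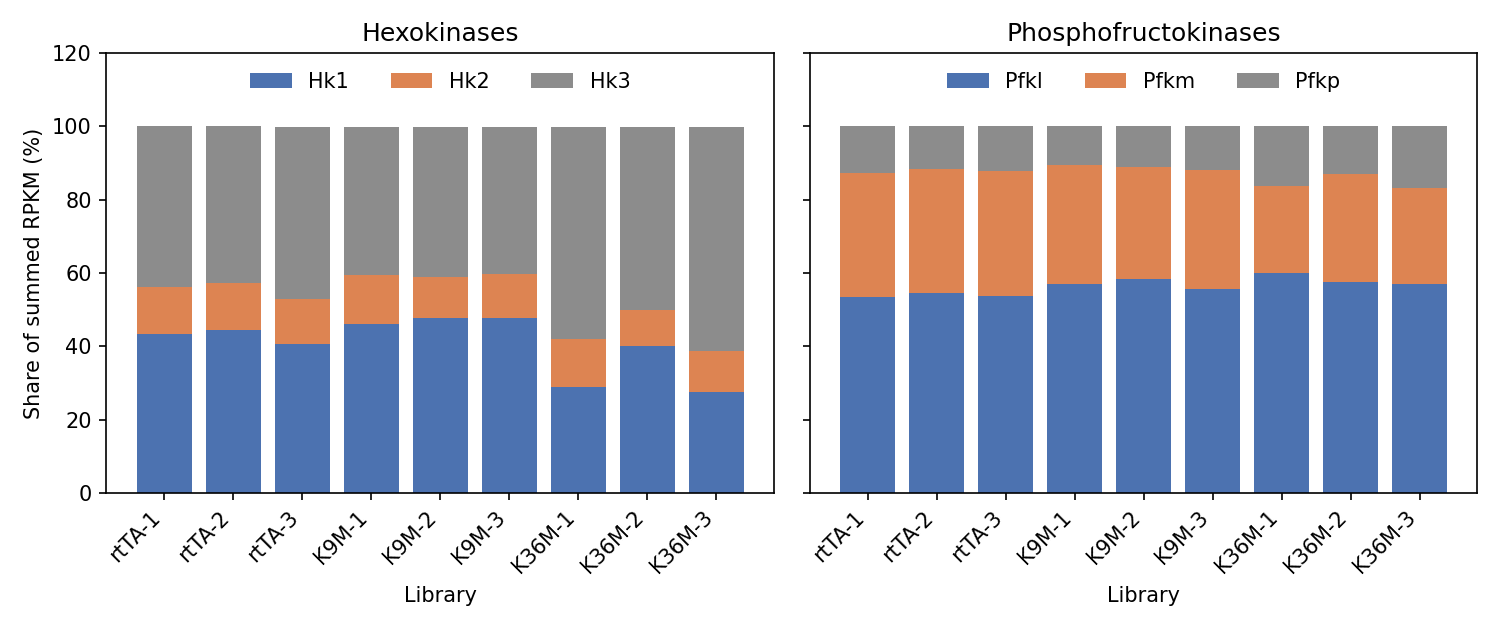
Share of summed RPKM (%) taken by each hexokinase gene and each phosphofructokinase gene, stacked, in each of the 9 libraries. Hk3 takes 49.97% to 61.1% in K36M against 40.1% to 46.98% in the other groups, and Pfkm takes less in K36M (23.6% to 29.3%) than in rtTA (33.9% to 34.04%).

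The other steps and isoenzymes of glycolysis formed a list of 22 genes, of which 14 passed the filter. In K9M and in K36M against rtTA limma called none of the 14, with 0 and 10 at an unadjusted p under 0.05 (all tested genes 7.11% and 19.1%). Of the 10 in K36M, 7 were positive, and Slc2a3, Pfkm and Bpgm were negative. Medians were 0.06 and 0.28, close to those of the 10 members, and 10 and 9 of the 14 were positive. In K36M, Hk3 stood at 23.9, 25.3 and 32.4 RPKM (rtTA 1 to 3), 24.4, 26.2 and 23.8 (K9M 1 to 3) and 52.2, 35.5 and 64.4 (K36M 1 to 3), 0.86 above rtTA (SE 0.20, limma adjusted p = 0.0774). Slc2a3, the carrier GLUT3, stood at 10.8, 11.5 and 13.6 RPKM (rtTA 1 to 3), 11.8, 10.99 and 11.2 (K9M 1 to 3) and 6.41, 8.89 and 7.03 (K36M 1 to 3), which was -0.66 from rtTA (SE 0.14, limma adjusted p = 0.0539). Every K36M library was below every other library for Slc2a3, and above every other library for Hk3. Of all tested genes, 11.6% had all K36M libraries above all rtTA libraries, and 14.5% above all K9M libraries. The shares below were not reported. Tpi1, Gapdh and Pgam1, enzymes of the list named here because their levels were like those of the members, had differences of 0.29, 0.22 and 0.59 in K36M (limma adjusted p = 0.289, 0.561 and 0.121).

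Against K9M, 2 of the 14 rose in K36M, Hk3 by 0.98 (limma adjusted p = 0.0444) and Eno3, the muscle enolase, by 0.86 (limma adjusted p = 0.0303). This comparison called 2.52% of all tested genes. At an unadjusted p under 0.05 there were 8 of the 14, 5 of them positive, beside 18.8% of all tested genes. Eno3 was low, from 2.82 to 6.89 RPKM over all libraries. Each call ended when K9M 1, K9M 2, K9M 3, K36M 1 or K36M 3 was left out, with limma adjusted p up to 0.148 for Hk3 and 0.130 for Eno3. The Hk3 call also ended without rtTA 2 (0.0602) or rtTA 3 (0.0515). In all it ended in 12 of 22 alternatives and the Eno3 call in 8 of 21, both without a filter (0.0975 and 0.0721), with protein-coding rescaling and with the 2-group block among them. The smallest p of the list in K9M against rtTA belonged to Adpgk, a glucokinase that uses ADP (-0.52, limma adjusted p = 0.718), and Eno3 (-0.31, limma adjusted p = 0.736). Hk3 was again higher in K36M 1 and 3 (52.2 and 64.4 RPKM) than in K36M 2 (35.5), and highest of the controls in rtTA 3 (32.4), in the order of the granulocyte sums within K36M. The granulocyte markers as a list had 4 of 12 positive (Elane, Mpo, Prtn3 and Ctsg) and a median of -2.10 in K36M against rtTA. Of these markers, 0 were called higher and 1 lower (Ltf, lactotransferrin), beside 1.5% of all tested genes called in either direction. The monocyte markers had 6 of 9 tested positive and a median of 0.81. Their part in the Hk3 values was not tested.

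Among 17 regulators of flux (kinases of fructose 6-phosphate and pyruvate dehydrogenase, carriers of lactate and pyruvate, and Galm), 14 were tested. Galm, which interconverts the anomers of glucose and galactose, fell in K36M, by 1.34 on the log2 scale from rtTA (SE 0.19, limma adjusted p = 0.0173) and by 1.44 from K9M (limma adjusted p = 0.0123). It stood at 5.83, 4.08 and 5.34 RPKM (rtTA 1 to 3), 5.21, 5.04 and 6.11 (K9M 1 to 3) and 1.25, 1.86 and 2.04 (K36M 1 to 3), with no overlap between K36M and the rest. The call against rtTA ended without rtTA 3 (0.0645) or K36M 1 (0.0742) and with only the 2 groups compared, without a block (0.0799) or with it (0.0742), and the call against K9M without K9M 3 (0.0559). Pdk1, the kinase that restrains pyruvate entry into mitochondria, fell in K36M against K9M by 0.82 (SE 0.14, limma adjusted p = 0.0232) and was -0.55 from rtTA (limma adjusted p = 0.0886). The Pdk1 call ended when K9M 1, K9M 2, K9M 3, K36M 1 or K36M 3 was left out (limma adjusted p up to 0.103) and without a filter (0.0511). Its values were 20.8, 15.8 and 22.5 RPKM (rtTA 1 to 3), 25.4, 21.95 and 23.7 (K9M 1 to 3) and 13.8, 12.04 and 13.6 (K36M 1 to 3). Limma called 1 of the 14 in K36M against rtTA and 2 in K36M against K9M, beside 1.5% and 2.52% of all tested genes. At an unadjusted p under 0.05 there were 5 (2 positive) and 5 (1 positive), beside 19.1% and 18.8% of all tested genes. In K9M against rtTA none of the 14 was called, and none had an unadjusted p under 0.05, beside 7.11% of all tested genes. The smallest p there belonged to Slc16a1, a lactate carrier (0.30, limma adjusted p = 0.733), and Pdk1 (0.27, limma adjusted p = 0.736).

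Neither factors that control glycolysis genes nor hypoxia genes outside glycolysis passed in any comparison. Of 14 regulators, 12 were tested, and at an unadjusted p under 0.05 there were 1, 2 and 1 in K9M against rtTA, K36M against rtTA and K36M against K9M. Of all tested genes, 7.11%, 19.1% and 18.8% had such a p in the same order. Hif1a stood at 20.1, 14.7 and 17.3 RPKM (rtTA 1 to 3), 18.1, 18.5 and 17.4 (K9M 1 to 3) and 15.2, 13.8 and 13.2 (K36M 1 to 3), -0.29 in K36M against rtTA (limma adjusted p = 0.241), and Myc at 68.9, 109 and 103 RPKM (rtTA 1 to 3), 90.3, 74.2 and 84.2 (K9M 1 to 3) and 72.6, 91.8 and 92.6 (K36M 1 to 3), -0.11 (limma adjusted p = 0.792). In K36M against K9M the difference of Hif1a was -0.35 (limma adjusted p = 0.166). Egln2, a prolyl hydroxylase of the HIF factors, differed by 0.23 in K9M and 0.24 in K36M against rtTA (limma adjusted p = 0.699 and 0.225), Mycn by -0.50 in K9M (limma adjusted p = 0.777), and Egln3, of the same family as Egln2, by 0.34 in K36M against K9M (limma adjusted p = 0.354). Of 14 hypoxia genes, 13 were tested, with medians of -0.11, -0.10 and -0.04 in the 3 comparisons and 1, 2 and 2 at an unadjusted p under 0.05. Ero1l, an oxidase of protein folding, was 0.54 above rtTA in K36M (limma adjusted p = 0.163), and Ndrg1 -0.39 (limma adjusted p = 0.239). Ero1l was 0.65 above K9M (limma adjusted p = 0.0989). Ankrd37 differed by 0.58 in K9M against rtTA and by -0.60 in K36M against K9M (limma adjusted p = 0.693 and 0.222), and Ndrg1 by -0.35 in K9M against rtTA (limma adjusted p = 0.718).

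The pentose phosphate pathway, which branches off at glucose 6-phosphate, had all 8 genes tested and none called. In K36M against rtTA all 8 were positive, from 0.04 for H6pd to 0.57 for G6pdx, with a median of 0.49 and 6 at an unadjusted p under 0.05. Of all tested genes, 7.11%, 19.1% and 18.8% had such a p in K9M against rtTA, K36M against rtTA and K36M against K9M. Rpe and Rpia, the epimerase and isomerase of ribulose 5-phosphate, differed by 0.49 and 0.48 (limma adjusted p = 0.11 and 0.114), and transketolase, Tkt, by 0.50 (limma adjusted p = 0.124). In K9M against rtTA the median was 0.07, with Tkt at 0.17 and Rpia at 0.13 (limma adjusted p = 0.840 and 0.864). Against K9M, G6pdx was 0.66 and Rpe 0.41 higher in K36M, and neither passed (limma adjusted p = 0.135 and 0.144). Of the 21 genes of pyruvate dehydrogenase and the citric acid cycle, all tested, none was called, 19 were positive in K36M and 20 in K9M against rtTA, with medians of 0.17 and 0.10. At an unadjusted p under 0.05 there were 7 in K36M and 1 in K9M. Cs, citrate synthase, was highest in K36M (97.4 ± 15.96 RPKM, SD, n = 3, against 64.7 ± 2.53 in rtTA) and differed by 0.57 (limma adjusted p = 0.0752), and by 0.52 from K9M (limma adjusted p = 0.0785). Idh3b, a subunit of isocitrate dehydrogenase, went the other way, with 29.1, 28.8 and 26.9 RPKM (rtTA 1 to 3), 31.2, 29.1 and 29.2 (K9M 1 to 3) and 23.6, 23.3 and 21.5 (K36M 1 to 3). Every K36M library was below every other library, with differences of -0.30 from rtTA and -0.38 from K9M (limma adjusted p = 0.115 and 0.0544). Suclg2 and Suclg1, subunits of succinyl-CoA ligase, differed by 0.28 and 0.24 in K9M against rtTA (limma adjusted p = 0.578 and 0.726). Of the 7 gluconeogenesis genes 4 were tested and none was called, with 1, 1 and 2 at an unadjusted p under 0.05 in the 3 comparisons. Fbp1, fructose bisphosphatase, stood at 6.03, 4.72 and 6.20 RPKM (rtTA 1 to 3), 31.5, 6.65 and 7.95 (K9M 1 to 3) and 3.23, 3.41 and 2.72 (K36M 1 to 3), so that K9M 1 alone carried its high K9M mean. Its differences were 1.03, -0.76 and -1.79 in the 3 comparisons (limma adjusted p = 0.707, 0.42 and 0.0843). G6pc3, a glucose 6-phosphatase, differed by 0.36 from rtTA and 0.30 from K9M in K36M (limma adjusted p = 0.16 and 0.231), and Pck2, the mitochondrial PEP carboxykinase, by 0.23 in K9M against rtTA (limma adjusted p = 0.699).

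**Figure D5:**
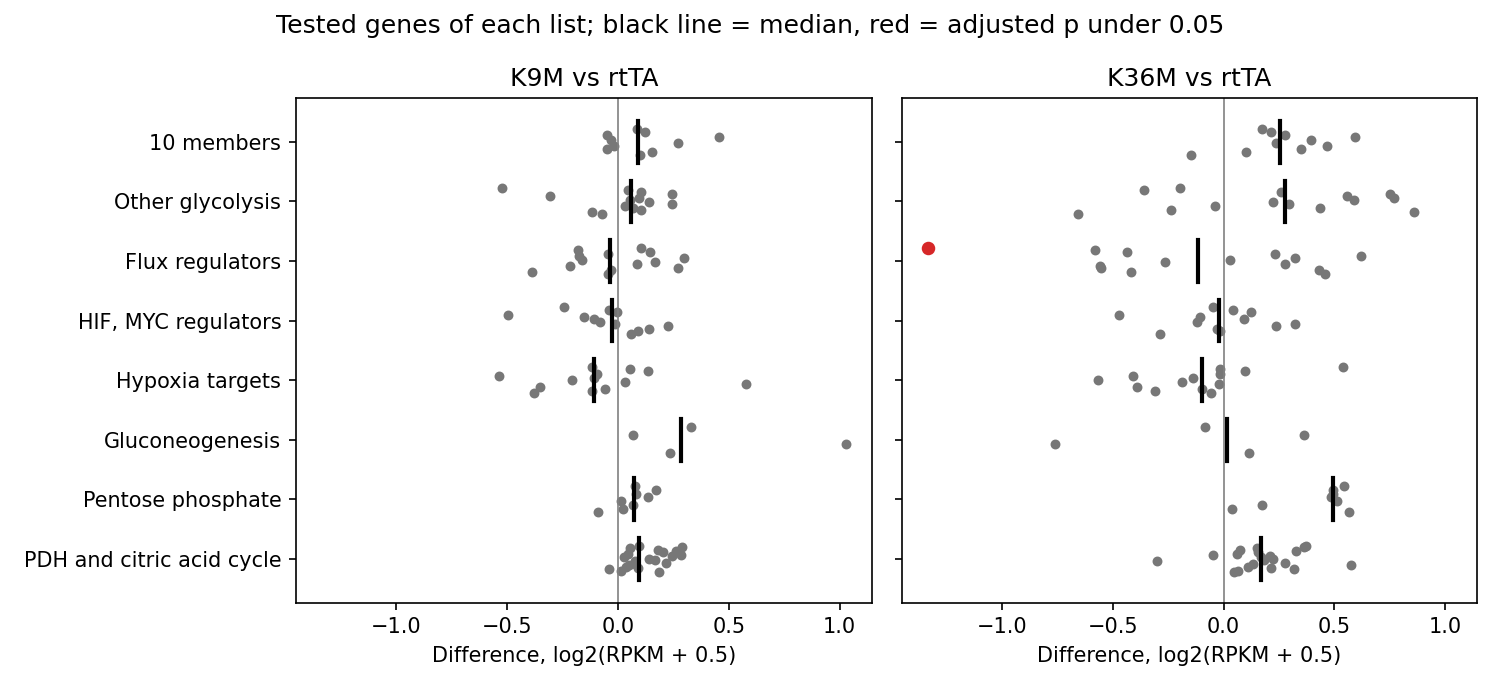
Difference on the log2(RPKM + 0.5) scale of each tested gene in 8 lists, for K9M and K36M against rtTA; points are genes, black lines list medians, and red points passed the adjusted test. In K36M the members (median 0.26), the other glycolysis genes (0.28) and the pentose phosphate genes (0.49) lie mostly above 0, and Galm (-1.34) alone passed.

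Cell cycle genes had positive differences beside the members in K36M against rtTA, all 13 of them, with a median of 0.40, none called and 9 at an unadjusted p under 0.05. Of all tested genes, 19.1% had such a p in K36M and 7.11% in K9M against rtTA. In K9M against rtTA 11 of 13 were positive, with a median of 0.15, none called and 2 at an unadjusted p under 0.05, Tyms (0.42, limma adjusted p = 0.557) and Mcm5 (0.35, limma adjusted p = 0.646). Plk1, a mitotic kinase, rose in K36M against K9M by 0.67 (limma adjusted p = 0.0384), a call that ended when rtTA 3, any K9M library, K36M 1 or K36M 3 was left out (limma adjusted p up to 0.145), and in 11 of 22 alternatives in all, the others being no filter (0.0752), protein-coding rescaling (0.0534), no trend (0.0525) and only the 2 groups compared, without a block (0.0627) or with it (0.120). Against rtTA, Plk1 differed by 0.62 and Ccnb1, cyclin B1, by 0.61 in K36M (limma adjusted p = 0.0602 and 0.0678). The 10 immediate early genes, which respond to stress and handling, had negative differences. In K36M against rtTA 8 of the 10 fell, beside 1.5% of all tested genes called in either direction. Zfp36 (-1.25, limma adjusted p = 0.00918) and Junb (-1.11, limma adjusted p = 0.0164) had the smallest p. None of the 10 was called in K9M against rtTA, and 9 had an unadjusted p under 0.05. Over the list, summed RPKM was 1555 to 1718 in rtTA, 761 to 887 in K9M and 485 to 802 in K36M. The part of proliferation or of handling in the members' values was not tested.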

How the data were processed

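RNA of sorted LSK cells from 9 mice was sequenced, and the authors deposited RPKM values of 37882 genes in 1 table. The submitters' processing notes name CASAVA 1.7, STAR and mm10. Per the labels' protocols, cDNA was made with a total RNA kit. The sources used here do not give the gene lengths, the use of strand or the treatment of reads with several matches, which leaves genes with near-identical copies uncertain. Depth was read from the lowest RPKM steps. These gave whole reads within 0.02 for 50.4% to 52.1% of the values compared, against 4% by chance, so depths are approximate and no count test was run.

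Genes with at least 1 RPKM in at least 3 libraries were tested on log2(RPKM + 0.5), which understates differences where RPKM is low. The 3 group means were fitted to all 9 libraries with limma 3.58.1 (R 4.3.3) and a mean-variance trend (residual degrees of freedom 6, prior 3.14). Tests were two-sided, with Benjamini-Hochberg adjustment over all 12926 genes, and the fit was tested on simulated data. The 10 genes and the lists beside them were chosen with earlier results of these data known. All members are named, and from each pathway list, in each comparison, up to 4 genes that passed or, where none did, the 2 with the smallest p. Marker genes and genes named for their copies, level or role are in addition and were chosen after their values were seen. Copies were found with blastn 2.17.0 in GENCODE M21 transcripts. Promoters are from RefSeq (GRCm38.p6).

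Pairing of same-number libraries was checked from how far their deviations from group means correlate. All 3 pairs lay above 0.1 for K36M and rtTA (0.414, 0.369 and 0.377), but not for K9M and rtTA (0.162, 0.0599 and 0.0174) or K36M and K9M (0.0741, -0.171 and 0.053). The labels do not state a pairing.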

Additional observations from a re-analysis of the deposited data

How the results depend on the processing

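Each result was recomputed with pseudocounts of 0.1 and 1, without a filter, with a mean of at least 5 RPKM, with quantile normalization, scaled to protein-coding RPKM or by the median ratio, without the trend, with library weights, with the replicate number as a block, with only the 2 groups compared, with copies added and without each library. A block fitted to only the 2 groups compared was added after seeing the data. Of 660 values of single members, 632 kept their direction and side of the threshold, 5 passed and 23 changed sign. Members called in K9M against rtTA were 0 throughout. In K36M against rtTA there was 1 with the replicate block and 0 to 1 when a library was left out, and in K36M against K9M 1 with quantile normalization and 0 to 2 when a library was left out. Fitted to K36M and rtTA alone, the block left Pgk1 uncalled (limma adjusted p = 0.0722). The replicate block changed no other call of a member. Other glycolysis genes called in K36M against rtTA were 1 with quantile normalization, median ratio scaling or library weights (Slc2a3) and 0 to 4 without a library. In K36M against K9M they were 0 without a filter, with protein-coding rescaling or with the 2-group block, 1 with a mean of at least 5 RPKM, without the trend or with only the 2 groups compared, 4 with library weights and 0 to 5 without a library. The cause was not tested.

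The median over members ranged from -0.02 to 0.21 in K9M against rtTA (negative with quantile normalization), from 0.16 to 0.31 in K36M against rtTA and from -0.02 to 0.23 in K36M against K9M (negative without K36M 1). In K9M against rtTA the sign changed for Gpi1 (0.0142) and Eno1 (0.0947) with copies added, Aldoa (0.0251) and Eno1 (0.244) with library weights, and Pkm (-0.0231) and Ldha (-0.0178) with quantile normalization. In K36M against rtTA it changed for Slc2a1 (0.00807) with library weights. When a library was left out, differences of K9M from rtTA ranged from -0.0381 to 0.366 for Slc2a1, -0.107 to 0.0146 for Hk2, -0.105 to 0.0655 for Gpi1, -0.0878 to 0.0712 for Aldoa and -0.338 to 0.213 for Eno1. Those of K36M from rtTA ranged from -0.287 to 0.117 for Slc2a1, -0.015 to 0.536 for Eno1 and -0.324 to 0.0901 for Gm1840. Those of K36M from K9M ranged from -0.119 to 0.00995 for Pfkl, -0.0333 to 0.245 for Pgk1, -0.039 to 0.223 for Pkm and -0.0751 to 0.181 for Ldha. Over all settings, genes called numbered 4 to 62 in K9M against rtTA (15 as reported), 10 to 402 in K36M against rtTA (194) and 15 to 595 in K36M against K9M (326). At 3 mice per group, standard errors of the members ran from 0.0975 to 0.248 on the log2 scale, which limits what can be called.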
